A study of Homo sapiens with 12 samples.

Results

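The messenger RNAs described here encode 41 translation initiation and elongation factors, among them the 4E-BP inhibitors of initiation and the elongation factor kinase EEF2K. They are listed by gene symbol and no value sets membership, although earlier results of these data were known when the list was drawn up, and all 41 were matched among the 57820 gene rows of the count table. Of these, 40 had enough reads to enter the tests, among 17096 genes in all, and EEF1G did not. RNA was sequenced from 12 cultures of 3 human cancer cell lines without amplification of the MYC gene, A549 from lung, SKOV3 from ovary and MDA-MB-231 from breast. The study asked which genes go with a change in tipifarnib sensitivity when MYC is over-expressed. Each line had been transduced with lentivirus, either the pCDH-CMV control vector (genotype labelled WT, called control cells here) or a vector for full-length human MYC (called MYC cells). Cells were selected with puromycin as stable populations, so both genotypes carry a lentiviral vector. Cultures then received DMSO, the solvent, or tipifarnib, an inhibitor of protein farnesyltransferase, for 48 h. The tipifarnib concentration was 10 µM for A549 and 20 µM for SKOV3 and MDA-MB-231. This gives 4 groups of 3 libraries (both genotypes, each with either treatment), and every line contributes 1 library to every group. Since the 3 libraries of a group are 3 different lines and the labels name no repeat culture, the p-values describe the spread among these samples alone.

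Translation initiation brings the initiator tRNA to a start codon on the small ribosomal subunit. The GTPase eIF2 carries that tRNA and is recharged by eIF2B, the large eIF3 complex organises the subunit, EIF1 and EIF1AX help it scan, and the eIF4 proteins bind the cap and unwind the messenger. The cap-binding protein eIF4E is held inactive by the 4E-BPs, which the mTOR kinase switches off by phosphorylation. In elongation, eEF1A delivers aminoacyl-tRNAs, the eEF1B subunits recharge it, and eEF2 moves the ribosome along until the kinase EEF2K phosphorylates and inhibits it. MYC is a transcription factor that binds the E-box sequence, and genes of ribosomes and translation factors are among its well-known targets.

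The canonical E-box CACGTG is its own reverse complement, so 1 search covers both strands. It was looked for in the 250 bases before each annotated start of a gene, taken from RefSeq promoters on GRCh38.p14. Some genes have more than 1 such window, and a gene was counted if any of its windows held the E-box. A window was found for 33 of the 41 members, and not for EIF2S2, EIF3A, EIF3E, EIF3G, EIF3H, EIF3L, EIF4EBP1 and EEF1D. The E-box was present in 8 of those 33 (24.2%), namely EIF2B3, EIF3F, EIF3K, EIF4B, EIF4E, EIF4G1, EIF4H and EEF2K, against 7.73% of 27305 genes with a window of this length. Counted by window, it was in 8 of the 45 windows of members, against 6.34% of all 35116 windows. Shown here are the windows of EIF4E and EIF4G1, which hold 2 E-boxes each and encode cap-complex proteins, and of EIF3K and EEF2K, which hold 1 each and rose with MYC. Each reads 5′ to 3′ in the direction of the gene, with the E-box in capitals, and the last base is the one before the annotated start.
EIF4E: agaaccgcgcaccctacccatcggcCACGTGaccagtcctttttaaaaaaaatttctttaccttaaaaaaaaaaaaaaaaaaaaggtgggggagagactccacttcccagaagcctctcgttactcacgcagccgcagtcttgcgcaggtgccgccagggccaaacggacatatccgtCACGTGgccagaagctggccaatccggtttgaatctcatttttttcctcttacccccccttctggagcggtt
EIF4G1: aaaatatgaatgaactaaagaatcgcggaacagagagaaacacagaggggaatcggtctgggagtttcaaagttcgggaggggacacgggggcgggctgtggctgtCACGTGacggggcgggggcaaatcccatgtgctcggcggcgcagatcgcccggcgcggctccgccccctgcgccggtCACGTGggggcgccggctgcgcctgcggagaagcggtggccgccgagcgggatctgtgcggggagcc
EIF3K: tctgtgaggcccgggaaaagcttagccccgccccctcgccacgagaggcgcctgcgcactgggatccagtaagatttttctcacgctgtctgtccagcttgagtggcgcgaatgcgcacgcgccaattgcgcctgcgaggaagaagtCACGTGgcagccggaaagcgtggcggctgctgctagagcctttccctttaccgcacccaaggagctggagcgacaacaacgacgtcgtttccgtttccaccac
EEF2K: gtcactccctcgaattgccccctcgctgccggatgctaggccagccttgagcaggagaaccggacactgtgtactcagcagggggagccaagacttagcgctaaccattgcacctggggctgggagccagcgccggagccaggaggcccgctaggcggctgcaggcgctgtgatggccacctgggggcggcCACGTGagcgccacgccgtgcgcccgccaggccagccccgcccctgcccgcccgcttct
These windows lie at chr4:98929134-98929383 (minus strand), chr3:184314356-184314605 (plus strand), chr19:38618938-38619187 (plus strand) and chr16:22206028-22206277 (plus strand). The first E-box base lies 225 and 72 bases before the start in EIF4E, 144 and 67 in EIF4G1, 103 in EIF3K and 59 in EEF2K. A match of letters is a description, not a binding site, and the files hold no binding measurement.

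Library sizes were 20481363 to 26962994 gene counts, and levels below are CPM, a gene's counts scaled to library size with TMM factors. The MYC transcript, counted without separating the endogenous from the vector copy, was 4.80 to 10.2 times higher in MYC than in control cells in DMSO and 3.53 to 6.12 times higher in tipifarnib. From DMSO to tipifarnib it went from 105 to 143 CPM in A549, 48.4 to 99.7 in SKOV3 and 148 to 349 in MDA-MB-231 control cells. In MYC cells it fell from 912 to 506 CPM in A549 and rose from 494 to 610 in SKOV3 and 709 to 1593 in MDA-MB-231. The part of these MYC levels in the tipifarnib changes below was not tested. Of the lines' own markers, ALDH1A1 was at 7911 to 9378 CPM in A549, PAX8 at 173 to 265 and ERBB2 at 1169 to 5747 in SKOV3, and ZEB1 at 107 to 141 in MDA-MB-231, each highest in its line. AKR1B10 (1406 to 2930 CPM) and KRT18 (265 to 556) were also highest in A549. Against their lists, AKR1C1 of A549 (171 to 330 there) was at 259 to 562 CPM in SKOV3, and TGFBI of MDA-MB-231 (11.8 to 55.8 there) was at 230.2 to 1312 CPM in A549. VIM (887 to 1408) and CD44 (410 to 493) of MDA-MB-231 overlapped SKOV3 at 716 to 1021 and 141 to 562. GRB7 of SKOV3 was at 40.1 and 49.2 CPM in DMSO but 9.65 and 5.95 in tipifarnib, under A549 at 13.2 to 17.2. Several lineage markers were low. NKX2-1, NAPSA and SFTPB were at 2.05 CPM or less in A549, and MUC16 at 0.65 or less and WT1 at 1.76 or less in SKOV3. In MDA-MB-231 ESR1 was at 0.27 CPM or less and GATA3 at 5.27 to 8.33, but KRT19 was at 87.0 to 517. Some were higher in another line than in their own: GATA3 was at 8.17 to 19.0 CPM and WT1 at 4.49 to 8.80 in A549, and ESR1 at 27.6 to 83.8 in SKOV3. MUC16 reached 4.27 CPM in A549. KRT19 was also at 70.7 to 371 CPM in A549. The leukocyte markers PTPRC and CD3E stayed at 0.51 CPM or less in every library, but of the markers of other cell types COL1A1 was at 18.5 to 304 CPM in SKOV3, COL3A1 reached 42.2 CPM in A549 and ALB 10.5 CPM in MDA-MB-231; their part in the results was not tested. The 41 members together took 2.07% to 3.58% of gene counts, of which EEF1A1 alone took 0.705% to 2.03%.

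Per kilobase of exon, EEF1A1, the carrier of aminoacyl-tRNA, was the most abundant member, with a median over the 12 libraries of 1906 CPM per kb. It was followed by EEF2 at 411, EIF5A at 380.2 and EIF1 at 246 CPM per kb. At the lower end, among the members with at most 25% of their exonic bases overlapped, EEF1E1 stood at 3.47, EIF4E at 5.92, EEF2K at 6.94 and EIF2B4 at 6.97 CPM per kb. The length used joins all annotated exons of a gene in GENCODE 29, 14067 bases for EIF4E, and the order depends on it. In CPM without length, the median of EIF4E was 83.2, above EEF2K at 55.7 and EIF2B4 at 37.2. The table sets reads that could belong to 2 or more overlapping genes aside as ambiguous, and such reads were 9.22% to 10.6% of all reads. EEF1G, an eEF1B subunit, had 0 counts in all 12 libraries, and 99.9% of its exonic bases are overlapped on the same strand by the read-through gene AP002990.1 in the GENCODE 29 annotation. EIF4A1, the helicase of the cap complex, was counted at only 0.303 to 1.28 CPM per kb, while its paralog EIF4A2 stood between 18.7 and 98.6. Overlap covers 48.6% of the EIF4A1 exons, 51.8% of those of EIF3L and 34% of those of EEF1D. For EEF1E1 it is 18.7%, with EEF1E1-BLOC1S5 on the same strand as the main overlapping gene. Whether the overlaps account for these levels was not tested, and the values of EIF4A1, EIF3L, EEF1D and EEF1E1 are uncertain in this respect. Of the members, 23 have copies elsewhere in the table by name, whose symbol is the member's followed by P and a number. The 48 such copies of EEF1A1 together held 0.129% as many counts as EEF1A1. The 1 copy of EEF1E1 held 4.96% as many as EEF1E1, the highest share among members with counts. How alike the copies are in sequence was not examined.

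**Figure D1:**
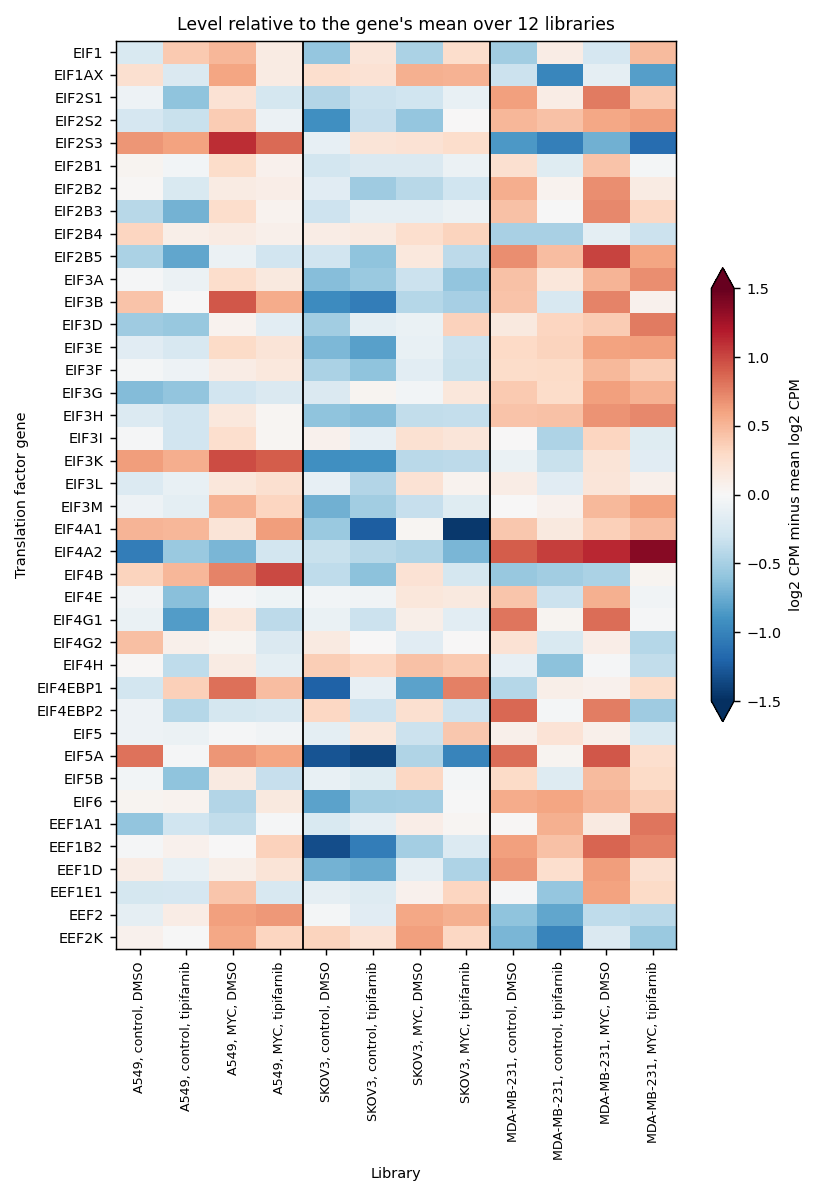
Level of each measured translation factor (rows) in the 12 libraries (columns, by line, genotype and treatment), as log2 CPM minus the gene's own mean over the 12 libraries. Colour is limited to 1.5 log2 units either side, and the blocks of 4 columns of a line differ from each other more than columns within a line do for genes such as EIF2S3, EIF3K and EIF4A2.

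MYC cells held more messenger RNA of several translation factors than control cells of the same line and treatment. Over the 6 pairs, 9 of 40 members rose and 0 fell, which is 22.5% of the members where 7.35% of all genes were called in either direction and 4.5% of all genes rose and 2.84% fell. The 9 were 6 subunits of eIF3 (EIF3M, EIF3B, EIF3D, EIF3E, EIF3K and EIF3H), the eIF2B subunit EIF2B5, the elongation factor EEF2 and its kinase EEF2K. Their rises were modest, between 0.29 and 0.53 on the log2 scale. The fitted change was above 0 in 37 of 40 members, with a median of 0.26 where the median over all genes was -0.0003. These shares are of RNA in a library, so more RNA of a gene per cell and a change in the mix of cells cannot be told apart. The calls come from edgeR's quasi-likelihood test, with p-values adjusted by Benjamini-Hochberg over all genes, which takes the 2 pairs of a line as independent. They use a fit of line and group, and passing over all lines refers to this fit below unless another is named. With the counts summed per line, leaving 3 pairs, 0 members passed (0% of all genes). Of the 40 members, 26 (65%, against 21.4% of all genes) had an unadjusted p under 0.05. Leaving out A549, SKOV3 or MDA-MB-231 also left 0 members passing (0.0593%, 0.0836% and 0.859% of all genes). At an unadjusted p under 0.05 there were 15, 22 and 14 members (14%, 21.9% and 20.2% of all genes). DESeq2 on all 12 libraries called 15 members (14.1% of all genes) and limma-voom 11 (10.2%). An edgeR fit of each line's own effects, averaged over the lines, called 25 (24 up and 1 down, 24.3% of all genes).

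**Figure D2:**
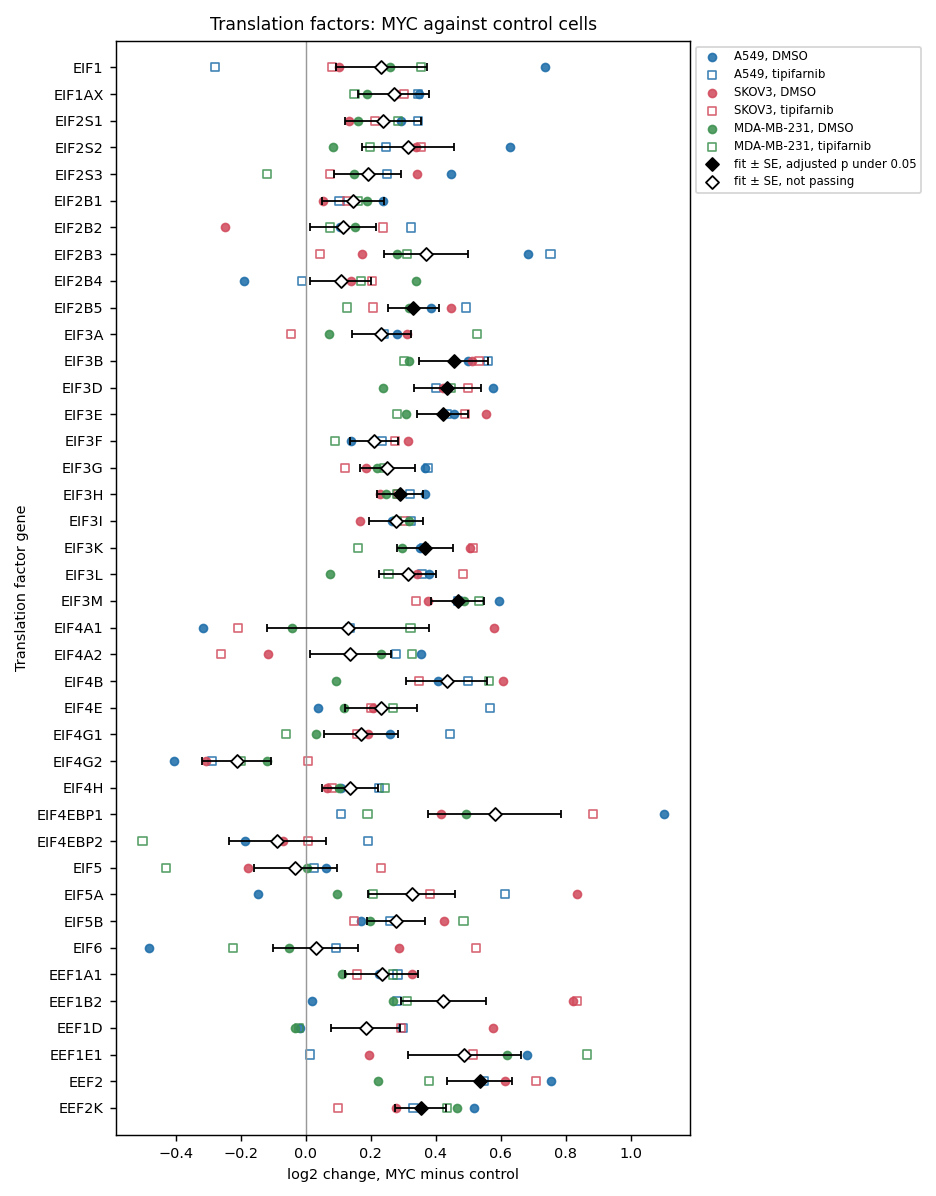
Log2 change from control to MYC cells for each of the 40 measured factors, with 1 point for each line and treatment and a diamond for the fit over 6 pairs with its standard error. Filled diamonds mark the 9 factors with an adjusted p under 0.05, whose points all lie to the right of 0.

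The eIF3 complex had the most calls, 6 of its 11 measured subunits, and the fitted change of all 11 was above 0 with a median of 0.31. EIF3M (ENSG00000149100.8), a PCI-domain subunit of the complex, had the smallest p. With DMSO, EIF3M went from 148 to 223 CPM in A549, 94.7 to 123 in SKOV3 and 156 to 219 in MDA-MB-231 between control and MYC cells. EIF3M in tipifarnib went from 141 to 196 CPM in A549, 108 to 137 in SKOV3 and 164 to 237 in MDA-MB-231. Each MYC library stood above its control, and the change was 0.47 ± 0.08 (adjusted p = 0.0147, higher in 6 of 6 pairs). EIF3E, another PCI-domain subunit, went from 379 to 520.0 CPM in A549, 267 to 392 in SKOV3 and 522 to 646 in MDA-MB-231 in DMSO. The tipifarnib pairs of EIF3E were 359 to 485 CPM in A549, 241 to 339 in SKOV3 and 535 to 650.4 in MDA-MB-231. SKOV3 was the lowest line in every group, so the ranges of the groups overlap while all 6 pairs point the same way, at 0.42 ± 0.08 (adjusted p = 0.0185).

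EIF3B, a core scaffold subunit, went from 411 to 582 CPM in A549, 159 to 227 in SKOV3 and 412 to 512 in MDA-MB-231 in DMSO. In tipifarnib the EIF3B levels were lower to start with and went from 303 to 448 CPM in A549, 149 to 216 in SKOV3 and 259 to 319.9 in MDA-MB-231. The change with MYC was 0.45 ± 0.11 (adjusted p = 0.0331, 6 of 6 pairs), and EIF3B was also among the members that fell in tipifarnib. EIF3D, the subunit that can itself bind caps, went from 159 to 238 CPM in A549, 159.8 to 214 in SKOV3 and 255 to 299.8 in MDA-MB-231 with DMSO and from 155 to 205 CPM in A549, 207 to 293 in SKOV3 and 288 to 393 in MDA-MB-231 with tipifarnib. Its change was 0.44 ± 0.10 (adjusted p = 0.0343), with the largest log2 step in the A549 pair in DMSO. EIF3K, a peripheral subunit whose promoter is printed above, went from 298 to 381 CPM in A549, 103 to 146 in SKOV3 and 181 to 222 in MDA-MB-231 with DMSO and from 282 to 363 CPM in A549, 103 to 147 in SKOV3 and 154 to 172 in MDA-MB-231 with tipifarnib. A549 had the highest EIF3K level in every group, and the change over 6 pairs was 0.37 ± 0.09 (adjusted p = 0.0343). EIF3H, a partner of EIF3F and EIF3M, went from 231 to 298 CPM in A549, 177 to 207 in SKOV3 and 359 to 426 in MDA-MB-231 in DMSO and from 219 to 273 CPM in A549, 172 to 209 in SKOV3 and 364 to 442 in MDA-MB-231 in tipifarnib. Those 6 steps were alike in size, and the change was 0.29 ± 0.07 (adjusted p = 0.0382).

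The 5 other eIF3 subunits did not pass. EIF3L, the partner of EIF3K, came nearest with 0.31 ± 0.09 (adjusted p = 0.0592, higher in 6 of 6 pairs), on levels of 226 to 294 CPM in A549, 239 to 303 in SKOV3 and 280.5 to 295 in MDA-MB-231 in DMSO and 240.4 to 308 CPM in A549, 193 to 269.8 in SKOV3 and 231 to 276 in MDA-MB-231 in tipifarnib. EIF3L is 1 of the members whose exons another gene overlaps. EIF3I had 0.28 ± 0.08, EIF3G 0.25 ± 0.08, EIF3F 0.21 ± 0.07 and EIF3A, the largest scaffold subunit, 0.23 ± 0.09. All 11 had an unadjusted p under 0.05, and the subunits are parts of 1 complex, so they are not separate replicates of a response.

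Elongation factors gave the largest rise that passed. EEF2 (ENSG00000167658.11), the translocase, went from 1596 to 2696 CPM in A549, 1714 to 2620.1 in SKOV3 and 1156 to 1348 in MDA-MB-231 between control and MYC cells in DMSO. With tipifarnib the EEF2 steps were 1888 to 2759 CPM in A549, 1558 to 2547 in SKOV3 and 1019.7 to 1326 in MDA-MB-231. MDA-MB-231 had the smallest steps and the lowest levels of EEF2, and the change over the 6 pairs was 0.53 ± 0.10 (adjusted p = 0.0181). EEF2K, the calcium-dependent kinase that inhibits eEF2, rose as well, from 52.8 to 75.7 CPM in A549, 63.6 to 77.1 in SKOV3 and 31.5 to 43.4 in MDA-MB-231 in DMSO. Its tipifarnib pairs were 50.2 to 63.1 CPM in A549, 58.5 to 62.7 in SKOV3 and 25.3 to 34.3 in MDA-MB-231, with the smallest step in SKOV3. The change was 0.35 ± 0.08 (adjusted p = 0.0305, higher in 6 of 6 pairs). Among the eEF1 subunits 0 of 4 measured passed the edgeR test, EEF1B2 and EEF1E1 having an unadjusted p under 0.05: EEF1A1 had 0.23 ± 0.11, the nucleotide exchange subunits EEF1B2 0.42 ± 0.13 and EEF1D 0.18 ± 0.11, and EEF1E1, a scaffold protein of the aminoacyl-tRNA synthetase complex, 0.49 ± 0.17 on levels of only 5.12 to 11.7 CPM.

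EIF2B5, the catalytic subunit of eIF2B, was the 1 member of 5 in its complex to rise. EIF2B5 went from 43.5 to 56.9 CPM in A549, 49.3 to 67.1 in SKOV3 and 97.7 to 122 in MDA-MB-231 in DMSO and from 35.0 to 49.2 CPM in A549, 39.7 to 45.9 in SKOV3 and 82.9 to 90.5 in MDA-MB-231 in tipifarnib. MDA-MB-231 held the highest level in every group, and the change was 0.33 ± 0.08 (adjusted p = 0.0338, 6 of 6 pairs). EIF2B3, the partner of EIF2B5 in the catalytic part, had 0.37 ± 0.13 (adjusted p = 0.114), and the regulatory subunits EIF2B1, EIF2B2 and EIF2B4 had 0.15, 0.11 and 0.11. Of the eIF2 subunits and scanning factors 0 of 5 passed in edgeR, EIF1AX alone having an unadjusted p under 0.05, with changes from 0.19 (EIF2S3, the GTPase subunit) to 0.32 (EIF2S2) for eIF2, 0.27 for EIF1AX and 0.23 for EIF1.

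The cap-binding group and its inhibitors did not pass with MYC in the edgeR fit of line and group. EIF4EBP1 did in edgeR with no low count filter (adjusted p = 0.0349) and in the edgeR fit of each line's own effects (0.0117). The latter fit also called 2 of the 7 genes of the eIF4 group, 1 up and 1 down (at -0.22), where 24.3% of all genes were called. EIF4E, the cap-binding protein, went from 82.7 to 84.8 CPM in A549, 83.6 to 96.4 in SKOV3 and 115 to 124 in MDA-MB-231 in DMSO and from 55.6 to 82.4 CPM in A549, 82.7 to 95.0 in SKOV3 and 68.8 to 82.9 in MDA-MB-231 in tipifarnib. All 6 pairs were higher in MYC cells, but by 0.23 ± 0.11 with an adjusted p of 0.237. EIF4EBP1 (ENSG00000187840.4), which encodes the inhibitor 4E-BP1, went from 148 to 318 CPM in A549, 77.1 to 103 in SKOV3 and 133 to 188 in MDA-MB-231 in DMSO. In tipifarnib EIF4EBP1 went from 230.0 to 248 CPM in A549, 164 to 302 in SKOV3 and 191 to 217 in MDA-MB-231. The steps varied from slight in the A549 and MDA-MB-231 pairs with tipifarnib to the wide step of A549 with DMSO, and the change of 0.58 ± 0.21 was not past the threshold (adjusted p = 0.114, higher in 6 of 6 pairs). The second inhibitor, EIF4EBP2, had -0.09 ± 0.15 (adjusted p = 0.771, higher in 2 of 6 pairs). EIF4B, a helicase cofactor, had 0.43 ± 0.12 (adjusted p = 0.0625), the scaffold EIF4G1 0.17 ± 0.12, EIF4H 0.14 ± 0.09 and EIF4A2 0.14 ± 0.13. EIF4G2, a scaffold relative that lacks the cap-protein site, had the lowest value of the 40, -0.21 ± 0.11 (lower in 5 of 6 pairs, adjusted p = 0.246). In the last group, the subunit-joining factor EIF5B had 0.28 ± 0.09, EIF5A 0.33 ± 0.13, EIF6 0.03 ± 0.13 and EIF5 -0.03 ± 0.13, and 0 of 4 passed in edgeR (EIF5A and EIF5B had an unadjusted p under 0.05).

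Changes with MYC were also set beside the presence of the E-box in the 250 bases. The median log2 change was 0.29 over the 8 members with it (range 0.14 to 0.43, 2 called) and 0.24 over the 24 measured members without it (range -0.21 to 0.53, 5 called). This is a description of few genes without a test.

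The number of members that passed with MYC varied from line to line. In A549, 15 of 40 members rose with MYC, where 17.7% of all genes were called, 9.94% rising and 7.8% falling. EIF2B3 led with 0.72 ± 0.12, followed by EEF2 at 0.65 ± 0.12, EIF3B at 0.53 ± 0.11, EIF3M at 0.53 ± 0.11, EIF3D at 0.49 ± 0.11 and EIF3E at 0.45 ± 0.11, and 8 of 11 eIF3 subunits passed there. In SKOV3, 7 of 40 rose (9.08% of all genes were called, 4.58% rising and 4.5% falling), with EEF1B2 first at 0.83 ± 0.11 (adjusted p = 0.00391). EEF1B2 is the exchange factor that recharges eEF1A, and its SKOV3 levels went from 169 to 299 CPM in DMSO and from 208 to 371 in tipifarnib. EEF2 (0.66), EIF3E (0.52), EIF3B (0.52), EIF3K (0.51), EIF3D (0.46) and EIF3L (0.41) completed the list. In MDA-MB-231 only EIF3M passed, at 0.51 ± 0.11 (adjusted p = 0.0495), where 1.64% of all genes were called, 0.813% rising and 0.831% falling. With DESeq2 size factors 0 members passed in that line (1.5% of all genes). An edgeR test of the difference itself found 0 of 40 members whose MYC change differed between lines, against 3.07% of all genes, with 4 members at an unadjusted p under 0.05 (16.2% of all genes) and 2 called by DESeq2 (5.7% of all genes). Within-line values rest on 2 pairs per line in a fit with 3 residual degrees of freedom.

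More members fell than rose with tipifarnib. Over both genotypes 7 of 40 members fell and 1 rose. Together that is 20% of members, where 11.3% of all genes were called, 6.63% falling and 4.66% rising. The falls were in the scaffold EIF4G1, the 4E-BP gene EIF4EBP2, EIF5A, EIF3B, the scanning factor EIF1AX, EIF5B and EIF2B5, and the rise was in the start-codon factor EIF1. Neither the eEF1 subunits nor EEF2 and its kinase passed in the edgeR fit of line and group, EEF1A1 and EEF2K having an unadjusted p under 0.05. The median over the 40 members was -0.12 and over all genes 0.0007. Scaled by library size alone, which moved the median of all genes to 0.07, 2 members fell and 1 rose (7.5% of members, against 11.3% of all genes). Without MDA-MB-231 0 members passed (0.505% of all genes). Without A549 2 did (EIF1 up and EIF4EBP2 down), which is 5% of members against 5.8% of all genes. Without SKOV3 7 did (17.5%, against 7.01% of all genes). With the counts summed per line 0 members passed (0.543% of all genes), and 8 of 40 (20%, against 17.2% of all genes) had an unadjusted p under 0.05. The edgeR fit of each line's own effects called 17 (3 up and 14 down, 28.9% of all genes). Among these were EEF2K (adjusted p = 0.0256), EIF4E (0.0121) and 1 eEF1 subunit, which rose.

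**Figure D3:**
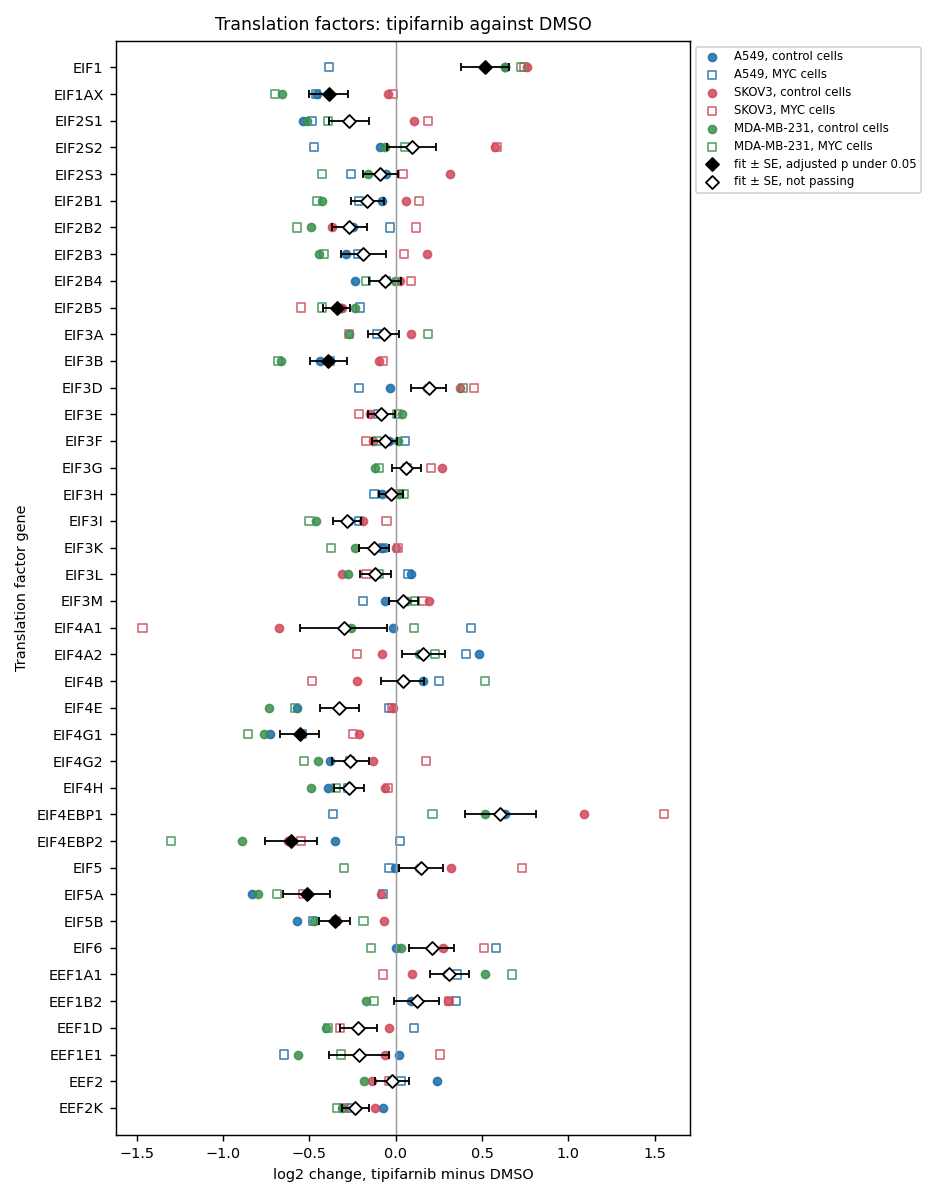
Log2 change from DMSO to tipifarnib for each of the 40 measured factors, with 1 point for each line and genotype and a diamond for the fit over 6 pairs with its standard error. Filled diamonds mark the 8 factors with an adjusted p under 0.05, and the SKOV3 points often lie nearer 0 than those of the other lines, as for EIF1AX and EIF3B.

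EIF4G1 (ENSG00000114867.15), the scaffold on which the cap complex assembles, had the smallest p. In control cells EIF4G1 went from 695 to 419 CPM in A549, 696 to 599.5 in SKOV3 and 1304 to 769.6 in MDA-MB-231 between DMSO and tipifarnib. In MYC cells EIF4G1 went from 831 to 569.5 CPM in A549, 795 to 669 in SKOV3 and 1332 to 737 in MDA-MB-231. It was lower in tipifarnib in 6 of 6 pairs, least so in SKOV3, with a change of -0.56 ± 0.12 (adjusted p = 0.0154). EIF4E, its cap-binding partner, had steps of 82.7 to 55.6 CPM in A549, 83.6 to 82.7 in SKOV3 and 115 to 68.8 in MDA-MB-231 in control cells and 84.8 to 82.4 CPM in A549, 96.4 to 95.0 in SKOV3 and 124 to 82.9 in MDA-MB-231 in MYC cells. Its change of -0.33 ± 0.11 had an adjusted p of 0.0879, lower in 6 of 6 pairs, with almost no step in SKOV3 or in A549 MYC cells, and it was -0.15 without MDA-MB-231. EIF4E passed in the edgeR fit of each line's own effects (adjusted p = 0.0121). EIF4H, a helicase cofactor, went from 708 to 539 CPM in A549, 908 to 870.0 in SKOV3 and 643 to 459 in MDA-MB-231 in control cells and from 763 to 631 CPM in A549, 950.5 to 920.4 in SKOV3 and 690.2 to 543 in MDA-MB-231 in MYC cells. It too was lower in all 6 pairs without passing, at -0.27 ± 0.09 (adjusted p = 0.0753). The others of the group had -0.26 ± 0.11 for EIF4G2, 0.16 ± 0.13 for EIF4A2, 0.04 ± 0.12 for EIF4B and -0.30 ± 0.25 for EIF4A1, on levels of only 1.61 to 6.80 CPM.

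The genes of the 2 inhibitors of eIF4E had changes of opposite sign in tipifarnib. EIF4EBP2 (ENSG00000148730.6) went from 104 to 81.7 CPM in A549, 136 to 88.4 in SKOV3 and 199 to 108 in MDA-MB-231 in control cells. In MYC cells EIF4EBP2 went from 91.5 to 93.3 CPM in A549, 129.8 to 88.8 in SKOV3 and 187 to 75.9 in MDA-MB-231. The level was lower with tipifarnib in 5 of 6 pairs, the exception being A549 MYC cells, and the change was -0.61 ± 0.15 (adjusted p = 0.0306). EIF4EBP1 went from 148 to 230.0 CPM in A549, 77.1 to 164 in SKOV3 and 133 to 191 in MDA-MB-231 in control cells and from 318 to 248 CPM in A549, 103 to 302 in SKOV3 and 188 to 217 in MDA-MB-231 in MYC cells. It was higher in 5 of 6 pairs, again with the exception of A549 MYC cells, and its change of 0.61 ± 0.21 did not pass in edgeR (adjusted p = 0.0879). It passed with DESeq2 (adjusted p = 0.0285), with no low count filter (0.0186) and with each line's own effects (0.00525), and without SKOV3 it was 0.25. Without MDA-MB-231 the change of EIF4EBP2 was -0.36. The unequal steps are visible in the plot of CPM by library, where SKOV3 has the widest ones for EIF4EBP1 and MDA-MB-231 for EIF4EBP2.

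**Figure D4:**
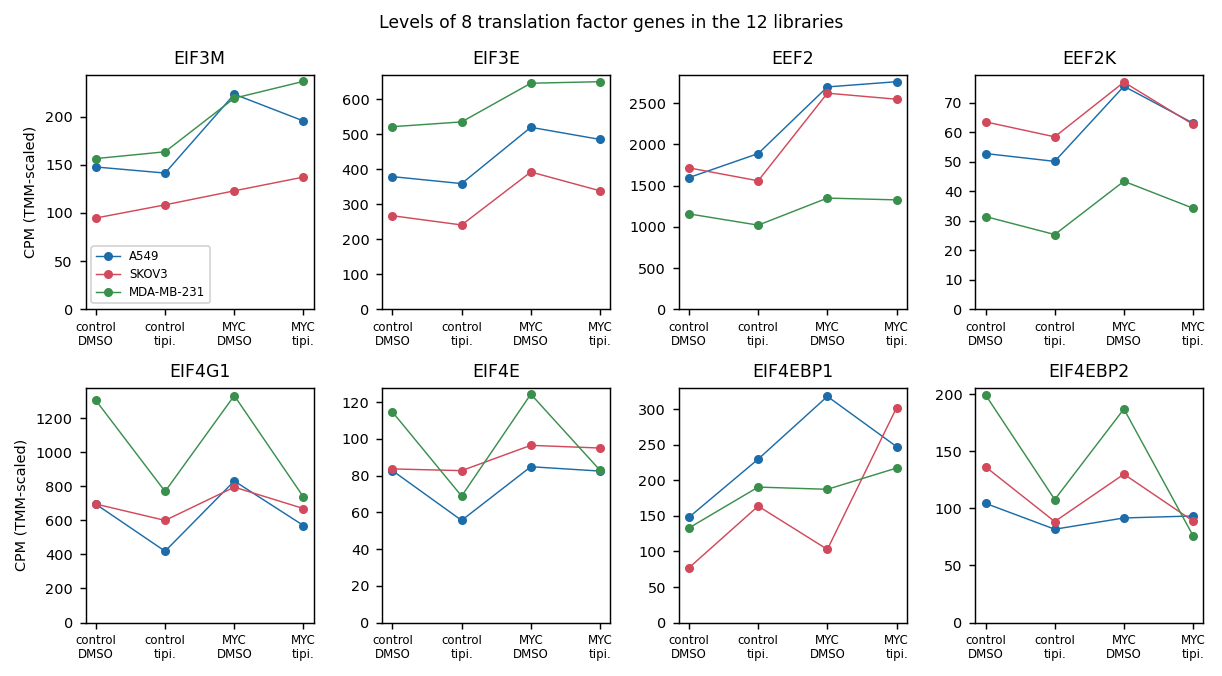
CPM of 8 factors in the 12 libraries, 1 panel per gene and 1 colour per line, from control cells in DMSO to MYC cells in tipifarnib. Lines join libraries of 1 cell line, and EIF4EBP1 in SKOV3 MYC cells spans 103 CPM in DMSO and 302 CPM in tipifarnib.

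Both scanning factors passed, in opposite directions. EIF1, which guards the choice of start codon, went from 699 to 1082 CPM in A549, 551 to 933 in SKOV3 and 574 to 889 in MDA-MB-231 in control cells and from 1163 to 890.3 CPM in A549, 590.4 to 987 in SKOV3 and 687 to 1138 in MDA-MB-231 in MYC cells. It was higher in 5 of 6 pairs and lower in A549 MYC cells, with a change of 0.52 ± 0.14 (adjusted p = 0.0421). EIF1AX, its partner in scanning, went from 289 to 211 CPM in A549, 293 to 284 in SKOV3 and 196 to 124 in MDA-MB-231 in control cells and from 368 to 267 CPM in A549, 355 to 351 in SKOV3 and 224 to 138 in MDA-MB-231 in MYC cells. SKOV3 hardly moved, and the change was -0.39 ± 0.11 (adjusted p = 0.0496, lower in 6 of 6 pairs), or -0.23 without MDA-MB-231.

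Among the remaining factors was EIF5A, the hypusine-bearing factor that helps ribosomes past difficult sequences. It went from 1697 to 952 CPM in A549, 395 to 372 in SKOV3 and 1729 to 994 in MDA-MB-231 in control cells. MYC cells had EIF5A steps of 1531 to 1456 CPM in A549, 705 to 485 in SKOV3 and 1847 to 1147 in MDA-MB-231. The change was -0.52 ± 0.13 (adjusted p = 0.0358, lower in 6 of 6 pairs), and SKOV3 stood well below the other lines throughout. EIF5B, the GTPase of subunit joining, went from 258 to 174 CPM in A549, 246 to 235 in SKOV3 and 322 to 232 in MDA-MB-231 in control cells and from 291 to 208 CPM in A549, 329.8 to 259.8 in SKOV3 and 369.5 to 325 in MDA-MB-231 in MYC cells. Its steps were narrowest in SKOV3 control cells, and the change was -0.35 ± 0.09 (adjusted p = 0.0312, lower in 6 of 6 pairs). EIF5 had 0.15 ± 0.13, and EIF6, which keeps the ribosomal subunits apart, had 0.21 ± 0.13.

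EIF2B5 fell with tipifarnib from 43.5 to 35.0 CPM in A549, 49.3 to 39.7 in SKOV3 and 97.7 to 82.9 in MDA-MB-231 in control cells and from 56.9 to 49.2 CPM in A549, 67.1 to 45.9 in SKOV3 and 122 to 90.5 in MDA-MB-231 in MYC cells. All 6 pairs were lower, with a change of -0.34 ± 0.08 (adjusted p = 0.0234) that is close in size to its rise with MYC. The 4 other eIF2B subunits had negative changes, from -0.27 (EIF2B2) to -0.06 (EIF2B4), and did not pass. EIF3B was the 1 eIF3 subunit of 11 to fall, from 411 to 303 CPM in A549, 159 to 149 in SKOV3 and 412 to 259 in MDA-MB-231 in control cells and from 582 to 448 CPM in A549, 227 to 216 in SKOV3 and 512 to 319.9 in MDA-MB-231 in MYC cells. Its change was -0.39 ± 0.11 (adjusted p = 0.0433), with small steps in SKOV3, and was -0.23 without MDA-MB-231. EIF3I, which binds EIF3B in the complex, came next without passing, at -0.28 ± 0.08 (adjusted p = 0.0543, lower in 6 of 6 pairs), from 241 to 199.9 CPM in A549, 255 to 224 in SKOV3 and 244 to 177 in MDA-MB-231 in control cells and from 289.9 to 250.1 CPM in A549, 287 to 276 in SKOV3 and 304 to 215 in MDA-MB-231 in MYC cells. The other 9 subunits ranged from -0.12 (EIF3K) to 0.19 (EIF3D).

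EEF2K was lower with tipifarnib in 6 of 6 pairs without passing in the fit of line and group. In the edgeR fit of each line's own effects it passed (adjusted p = 0.0256). It went from 52.8 to 50.2 CPM in A549, 63.6 to 58.5 in SKOV3 and 31.5 to 25.3 in MDA-MB-231 in control cells and from 75.7 to 63.1 CPM in A549, 77.1 to 62.7 in SKOV3 and 43.4 to 34.3 in MDA-MB-231 in MYC cells, a change of -0.23 ± 0.08 (adjusted p = 0.0885). EEF2 had -0.02 ± 0.10, EEF1A1 0.31 ± 0.11 (adjusted p = 0.105, higher in 5 of 6 pairs), EEF1B2 0.12 ± 0.13, EEF1D -0.22 ± 0.11 and EEF1E1 -0.21 ± 0.17. The eIF2 subunits had -0.27 ± 0.12 for EIF2S1, 0.09 ± 0.14 for EIF2S2 and -0.09 ± 0.10 for EIF2S3, and the lines are taken singly below.

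Which members passed with tipifarnib also varied from line to line. In A549, given 10 µM, 5 of 40 members fell and 1 rose, where 8.03% of all genes were called, 3.56% rising and 4.47% falling. The falls were EIF4G1 (-0.64 ± 0.11), EIF2S1 (-0.51 ± 0.11), EIF1AX (-0.46 ± 0.11), EIF5B (-0.53 ± 0.12) and EIF3B (-0.41 ± 0.11), and the helicase EIF4A2 rose by 0.45 ± 0.11. In SKOV3, given 20 µM, 5 rose and 3 fell, where 14% of all genes were called, 6.57% rising and 7.48% falling. EIF4EBP1 rose most there, by 1.32 ± 0.22 (adjusted p = 0.00389), followed in order of p by EIF2S2 (0.58 ± 0.12), EIF4EBP2 (-0.59 ± 0.14), EIF1 (0.75 ± 0.20), EIF5 (0.52 ± 0.14) and EIF2B5 (-0.43 ± 0.12). In MDA-MB-231, given 20 µM, 14 of 40 fell and 2 rose, where 22.7% of all genes were called, 10.6% rising and 12.1% falling. EIF4EBP2 had the smallest p there, with -1.09 ± 0.14 (adjusted p = 0.000973). It was followed by EIF4G1 (-0.81 ± 0.11), EIF1AX (-0.68 ± 0.11), EIF3B (-0.67 ± 0.11), EEF1A1, which rose by 0.60 ± 0.11, and EIF4E (-0.66 ± 0.14).

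Tested directly, the tipifarnib change differed between lines for 3 of 40 members, against 7.69% of all genes. EIF2S1, the subunit that stress kinases phosphorylate, had changes of -0.51 ± 0.11, 0.15 ± 0.11 and -0.45 ± 0.11 for A549, SKOV3 and MDA-MB-231 in this order (adjusted p of the difference = 0.0427). EIF2S2, the beta subunit of the same complex, had -0.28 ± 0.12, 0.58 ± 0.12 and -0.01 ± 0.12 in the same order (adjusted p = 0.0363). For EIF4EBP2 the values were -0.16 ± 0.14, -0.59 ± 0.14 and -1.09 ± 0.14 (adjusted p = 0.0434). With edgeR a share of 3 in 40 is near that of all genes, while DESeq2 called 12 of 40 members (30%, against 13% of all genes) and no low count filter gave 13 (9.65% of all genes). A549 received another concentration, so for A549 line and concentration cannot be told apart.

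The change with MYC was not shown to depend on tipifarnib for any member. In the test of the interaction, 0 of 40 members and 0 of 17096 genes passed with edgeR, and also with DESeq2 and limma-voom. At an unadjusted p under 0.05 edgeR had 0 members and 125 genes, DESeq2 118 genes and limma-voom 185. The fitted interactions of the members ran from -0.32 for EIF1 to 0.23, with standard errors of 0.14 to 0.49, so an interaction as large as the changes with MYC given above was within the error for many of them. Each treatment on its own has only 3 pairs. MYC against control cells in DMSO alone gave 0 members passing with edgeR among 0% of all genes. At an unadjusted p under 0.05 there were 10 members (15.6% of all genes), and DESeq2 called 6 (5.29% of all genes). In tipifarnib alone it gave 0 members among 0% of all genes, with 14 members at an unadjusted p under 0.05 (12.3% of all genes) and 4 called by DESeq2 (2.43%). EIF3M had 0.49 ± 0.12 in DMSO and 0.45 ± 0.12 in tipifarnib, and EEF2 had 0.52 ± 0.14 and 0.55 ± 0.14. Tipifarnib against DMSO gave 0 members in control cells alone (1.78% of all genes, 0.298% rising and 1.49% falling) and 0 in MYC cells alone (1.12% of all genes, 0.404% rising and 0.714% falling). At an unadjusted p under 0.05 there were 13 and 8 members (16.2% of all genes in each), and DESeq2 called 3 and 2 (6.76% and 5.97% of all genes). EIF4G1 had -0.57 ± 0.16 in control and -0.54 ± 0.16 in MYC cells, and EIF4EBP2 had -0.63 ± 0.21 and -0.58 ± 0.21. limma-voom called 0 members in each of these 4 comparisons (1.22%, 0.199%, 2.45% and 1.78% of all genes in the order given).

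Levels of most members differed between the 3 lines. A difference in level was called for 30 of 40 members, where 79.7% of all genes were called, a similar share. The 4 libraries of a line are cultures of 1 line and not independent of each other. EIF2S3, the GTPase subunit of eIF2, had the smallest p and was lowest in MDA-MB-231, at -1.74 ± 0.13 against A549. EIF3K was lowest in SKOV3, at -1.42 ± 0.11 against A549. EIF4A2 was highest in MDA-MB-231, at 1.74 ± 0.16 against A549, while SKOV3 was at 0.17 ± 0.15. EIF2B5 was likewise highest in MDA-MB-231 (1.10 ± 0.10 against A549, while SKOV3 was at 0.12 ± 0.10). For these 2 genes MDA-MB-231 stood apart from the other two lines. EIF3H was in the order MDA-MB-231, A549 and SKOV3, with 0.64 ± 0.09 and -0.41 ± 0.09 against A549. EEF2K was lowest in MDA-MB-231, at -0.85 ± 0.10 against A549.

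Related genes of the pathway outside the 41 were counted from 4 lists. Of 21 other cytosolic initiation factors tested, 5 rose with MYC and 0 fell (4.5% of all genes rose), with a list median of 0.14. They were EIF2A (0.52 ± 0.09), PABPC4, a poly(A)-binding protein (0.38 ± 0.08), the loosely held eIF3 subunit EIF3J (0.46 ± 0.11), EIF2D (0.35 ± 0.08) and the ribosome recycling factor ABCE1. Of 17 other elongation, hypusination and release factors 2 rose, DPH2 (0.57 ± 0.11) and DPH1 (0.37 ± 0.10), both enzymes that make the diphthamide residue of eEF2. Of 11 mitochondrial translation factors 3 rose, the elongation factors TUFM (0.55 ± 0.08) and TSFM (0.60 ± 0.13) and the recycling factor MRRF (0.40 ± 0.10). Of 20 kinases, phosphatases and mTOR-pathway regulators of translation factors 0 passed with MYC, 4 having an unadjusted p under 0.05. The fit of each line's own effects, which called 24.3% of all genes with MYC, called 7 of 21, 8 of 17, 6 of 11 and 6 of 20 members of these lists in the same order, the last being 4 up and 2 down.

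With tipifarnib, 3 of these 4 lists held members that passed. Of the 20 regulators, 3 rose and 2 fell, where 11.3% of all genes were called: MKNK2, a kinase of eIF4E (0.70 ± 0.14), the mTOR inhibitors DDIT4 (1.27 ± 0.29) and TSC1 (0.34 ± 0.09) rose, and the S6 kinase gene RPS6KB1 (-0.40 ± 0.09) and AKT1S1 (-0.33 ± 0.08), which encodes an mTOR-bound substrate, fell. In the other cytosolic initiation factors 2 of 21 fell and 0 rose, the helicases EIF4A3 (-0.41 ± 0.09) and DDX3X (-0.46 ± 0.11). Among the mitochondrial factors 1 of 11 fell, MRRF (-0.38 ± 0.10). None of the 17 other elongation, hypusination and release factors passed in the edgeR test, the smallest adjusted p being 0.0954 for the eEF1A methyltransferase EEF1AKMT1, which with GSPT1, a release factor, had an unadjusted p under 0.05. The fit of each line's own effects, which called 28.9% of all genes, called 6 of the 20 regulators, 11 of 21, 2 of 11 and 3 of 17 in the order given here.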

How the data were processed

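RNA of 12 cultures of 3 established human cell lines was sequenced after library preparation with a SMARTER mRNA-Seq kit, per the labels' protocols. The values are raw counts of reads for 57820 gene rows, deposited by the authors, who made them with TopHat2, hg19 and HTSeq, per the submitters' processing notes; DESeq2 is named there too. Versions, counting settings and the annotation release are not given in the sources used here. Summary rows for reads assigned to no gene (17.5% to 19.9% of reads) were left out.

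Genes were filtered with filterByExpr (17096 kept) and scaled with TMM in edgeR 4.0.16 (R 4.3.3). Its quasi-likelihood test, adjusted by Benjamini-Hochberg over all genes with a threshold of 0.05, was used in 16 comparisons. Comparisons over lines used line and group as terms (6 residual degrees of freedom, biological coefficient of variation 0.2446), and those within or between lines gave every line its own effects of MYC and of tipifarnib (3 residual degrees of freedom, 0.1354). Cell line is the block, from the labels. Across genes, deviations from group means correlated with r of 0.829 to 0.922 for libraries of 1 line (18 pairs) and -0.551 to -0.307 for other lines (36 pairs). Each group holds 1 library per line, so its deviations cancel out and negative values between lines follow from the centring. These correlations are a description and no test of the block.

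Alternatives were DESeq2 size factors, no low count filter, DESeq2 1.42.0, no replicate block, limma-voom (limma 3.58.1), library size alone, leaving out each line, counts summed per line, and the mean of each line's own effects. The fits were also run on simulated counts with known changes. In these the lines did not differ in level, unlike the real libraries, so the simulation does not cover that setting. Symbols were paired with 51996 identifiers from a gene table, exon overlap came from GENCODE 29, and promoters from RefSeq (GRCh38.p14), read with Python 3.11.15, pandas 2.3.3 and matplotlib 3.10.9. Per-pair changes used a prior count of 0.5. Every member is named; those with the smallest p (up to 10 in the comparisons over lines, 6 elsewhere), EIF4E, both 4E-BP genes and EEF2K are given in full, and each related list by up to 4 genes with the smallest p among those that passed. The members and the related lists were chosen with earlier results of these data known.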

Additional observations from a re-analysis of the deposited data

Results flagged for a closer look

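The response to tipifarnib differed between the 3 cell lines for 3 members, in a test of the difference itself (edgeR quasi-likelihood test, Benjamini-Hochberg adjustment over all genes). EIF2S1, the eIF2 subunit that stress kinases phosphorylate, had an adjusted p of 0.0427, with lower levels in A549 and MDA-MB-231 and a value above 0 in SKOV3. EIF2S2, the beta subunit, had an adjusted p of 0.0363 and rose in SKOV3 alone among the within-line tests. EIF4EBP2 had an adjusted p of 0.0434 and fell in SKOV3 and MDA-MB-231, with the wider fall in MDA-MB-231. With edgeR the share of members that differed, 3 of 40, is near the 7.69% of all genes, and DESeq2 called 12 members (30%, against 13% of all genes).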

How the results depend on the processing

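Counts here are members, of 40, that passed. With MYC over both treatments the reported count was 9 (7.35% of all genes). It became 15 with DESeq2 (14.1%) and 25 (24 up and 1 down, 24.3% of all genes) with each line's own effects. With no replicate block and with counts summed per line it was 0 (0% of all genes). It was also 0 whenever 1 line was left out (0.0593% to 0.859% of all genes). The reported count for tipifarnib over both genotypes was 8 (1 up and 7 down, 11.3% of all genes). It became 0 with no replicate block (0% of all genes) and 0 with counts summed per line (0.543%). With library size alone it was 3 (1 up and 2 down, 11.3% of all genes). When 1 line was left out it was 0 to 7 (0.505% to 7.01%), and with each line's own effects 17 (3 up and 14 down, 28.9%). With no low count filter it was 7, split as 3 up and 4 down (6.23% of all genes). Within 1 treatment or genotype, where edgeR called 0, DESeq2 called 6 for MYC in DMSO (5.29% of all genes), 4 for MYC in tipifarnib (2.43%), 3 for tipifarnib in control cells (6.76%) and 2 in MYC cells (5.97%), and no low count filter gave 1 for tipifarnib in control cells (1.66%). MYC within SKOV3 went from 7 (9.08% of all genes) to 11 with no low count filter (7.37%) and 12 with DESeq2 (11%). Within MDA-MB-231 the MYC count went from 1 (1.64% of all genes) to 0 with DESeq2 size factors (1.5%) and 4 with DESeq2 (5.11%). Differences between lines for MYC went from 0 (3.07% of all genes) to 1 with no low count filter (5.56%) and 2 with DESeq2 (5.7%). For tipifarnib they went from 3 (7.69% of all genes) to 13 (9.65%) and 12 (13%) in the same order. The cause of these shifts was not tested, and 0 of the named changes reversed in sign. Without SKOV3 the tipifarnib change of EIF4EBP1 was 0.25 in place of 0.61, and without MDA-MB-231 those of EIF4E, EIF4EBP2, EIF1AX and EIF3B were -0.15, -0.36, -0.23 and -0.23 in place of -0.33, -0.61, -0.39 and -0.39. EEF1E1 and EIF4A1 had the fewest counts of the members tested.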

Other observations

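The ratio of EIF4EBP1 to EIF4E counts, the inhibitor gene against the cap-binding protein gene, is free of library scaling. Control cells of A549 had a ratio of 1.79 in DMSO and 4.14 in tipifarnib, those of SKOV3 0.922 and 1.98, and those of MDA-MB-231 1.16 and 2.77. Among MYC cells the ratios were 1.07 and 3.18 for SKOV3, 1.51 and 2.62 for MDA-MB-231, and 3.75 and 3.00 for A549, the 1 pair in which tipifarnib was lower. The ratio was thus higher in tipifarnib in 5 of 6 pairs. These ratios were examined after the values were seen, they compare counts of genes of unequal length, and no test was run on them.

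The share of EEF1A1 moved most in the MDA-MB-231 tipifarnib pairs. In that line its share of gene counts was 1.09% in control cells with DMSO and 1.75% with tipifarnib, and in MYC cells 1.16% and 2.03%. All other members together stayed between 1.15% and 1.61% over the 12 libraries.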
